A study of Mus musculus with 2 samples.

Results

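The complement genes C1qa, C1qb, C1qc, C3, Cfb, Cfp, C3ar1 and C5ar1 were followed across the immune cells of MC38 tumours, a mouse colon carcinoma line. They were taken as 8 rows of 27998 by gene symbol, and all 8 were present in both count matrices and are accounted for here. The series held 2 droplet libraries (10x Genomics 3′) of viable CD45+ cells sorted from digested tumours of C57BL/6J mice, 1 control and 1 given antibody to PD-1, an inhibitory receptor of T cells. Each mouse carried tumours at 4 intradermal sites, grown for 7 days before control or antibody (200 µg per mouse per day) was injected into them, and tumours were taken on day 10. The sources used here give neither the content of the control injection nor how many mice stand behind a library. Each group is 1 library and has no replicate check, so no difference was tested and no p-value is given. All intervals are 95% intervals that cover counting error only, not variation between mice or from cell to cell.

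Complement is a cascade of plasma and tissue proteins that tags targets and releases inflammatory fragments. The classical pathway starts with C1q, built from A, B and C chains that C1qa, C1qb and C1qc encode, and the alternative pathway amplifies cleavage of C3 with factor B (Cfb) and properdin (Cfp), which stabilises the convertase. C3ar1 and C5ar1 encode the receptors of the fragments C3a and C5a. Most plasma complement comes from the liver, whereas C1q and properdin come largely from myeloid cells, and tissue macrophages are a known source of C1q.

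The C1q genes lie side by side on the minus strand of chromosome 4 (GENCODE vM21 on GRCm38), with C1qb at chr4:136880129-136886187, C1qc at chr4:136889804-136893065 and C1qa at chr4:136895917-136898803, a span of 18.7 kb. C3ar1 lies at chr6:122847138-122856161, C5ar1 at chr7:16246743-16259540, Cfb at chr17:34856374-34862518, C3 at chr17:57203970-57228136 and Cfp at chrX:20925454-20931555, all on the minus strand. Cfb overlaps Gm20547 on the same strand, and the counting may have dropped reads shared by the 2 genes, so the Cfb counts are uncertain. The other 7 members overlap no gene of the matrices on their own strand.

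The 250 bases before the start sites of C1qb, C1qc and C3ar1 are shown because these genes had the most similar profiles over the cell classes (Pearson r of at least 0.94 with each other, below) and were matched in the promoter table. Of the 8 members 6 were matched, and C1qa and Cfb were not. Each is from RefSeq (GRCm38.p6), read 5′ to 3′ on the gene's strand, and capitals mark matches on either strand to GAGGAA, the core of the sites of the myeloid factor PU.1, or TGCTGA, a half-site of MAF factors. The motifs do not overlap each other. The start sites are those of RefSeq and differ from the ends of the GENCODE genes given above. Parts of the C1qc and C3ar1 windows therefore lie inside the GENCODE spans of these genes.
C1qb, chr4:136886201-136886450: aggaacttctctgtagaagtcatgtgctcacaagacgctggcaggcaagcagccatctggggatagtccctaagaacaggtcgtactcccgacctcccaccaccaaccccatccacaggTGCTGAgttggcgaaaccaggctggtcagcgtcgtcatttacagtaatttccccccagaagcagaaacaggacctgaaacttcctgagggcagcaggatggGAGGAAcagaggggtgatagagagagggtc
C1qc, chr4:136892915-136893164: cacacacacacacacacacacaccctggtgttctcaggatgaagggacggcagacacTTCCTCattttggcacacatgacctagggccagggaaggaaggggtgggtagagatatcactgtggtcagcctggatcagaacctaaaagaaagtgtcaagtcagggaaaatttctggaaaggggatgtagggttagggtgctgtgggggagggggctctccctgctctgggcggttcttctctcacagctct
C3ar1, chr6:122856158-122856407: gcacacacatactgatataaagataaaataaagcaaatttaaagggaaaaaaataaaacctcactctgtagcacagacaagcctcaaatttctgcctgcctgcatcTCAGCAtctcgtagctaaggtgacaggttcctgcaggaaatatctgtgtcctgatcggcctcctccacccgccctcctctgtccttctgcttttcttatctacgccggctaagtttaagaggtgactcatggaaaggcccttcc
The C1qb window held both motifs, the C1qc window the PU.1 core and the C3ar1 window the MAF half-site. Of the other matched members, C3 and C5ar1 held the MAF half-site and Cfp neither motif. Of 32851 windows of this length before mouse start sites, 23.3% held the PU.1 core, 16.1% the MAF half-site and 3.68% both. The matches are letters in a window and not shown binding sites.

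A barcode was kept as a cell with at least 1000 unique molecular identifiers (UMIs, each a captured transcript) and at most 10% mitochondrial UMIs. This left 1174 control cells with a median of 3287 UMIs and 3321 anti-PD-1 cells with a median of 2763 UMIs. Cells were sorted into classes by marker genes that included no complement gene, and class names stand for those gates and no more. Macrophages numbered 202 control and 162 anti-PD-1 cells. They were split into Ccl8 and Mrc1 macrophages (28 and 7 cells), hypoxic macrophages (67 and 36) and other macrophages (107 and 119). Monocytes numbered 122 and 344 cells, of which 83 and 220 were classical, 24 and 76 nonclassical and 15 and 48 inflammatory. Neutrophils (4 and 112 cells) and S100a8-high myeloid cells (4 and 111) were described in the anti-PD-1 library only. Cells left without a class made up 9.54% of the control library and 6.84% of the other. Tumour epithelium and fibroblast markers were at or near 0 in macrophages, monocytes and neutrophils, and 4 cell barcodes occurred in both libraries.

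C1q was a macrophage transcript among the CD45+ cells of these tumours. Levels are in CPM, the UMIs of a gene as parts per mega-UMI of its class. The C1q genes summed stood at 11072 CPM (10883 to 11264) in control macrophages and at 10489 CPM (10280 to 10700) in anti-PD-1 macrophages. These cells held 91.1% and 77.8% of all C1q UMIs in kept cells, while making up 17.2% and 4.88% of the cells. Macrophages and monocytes together held 96.4% and 94.5%. By comparison, lymphocytes carried 38.6 CPM and 39.3 CPM. Free RNA, read from barcodes with 10 to 50 UMIs, would place 44.8 CPM and 24.5 CPM of C1q in lymphocytes if it made up 1.70% and 2.20% of their UMIs, shares estimated from Apoe, Lyz2 and Ms4a7. The control lymphocytes lay at that estimate, and the anti-PD-1 lymphocytes above it, with 66 of the 227 C1q UMIs of T cells in 1 cell. Without that cell the anti-PD-1 T cells stood at 30.4 CPM, and the anti-PD-1 NK cells had 32.7 CPM (24.7 to 42.5). Both values were above 24.5 CPM, but the NK interval began next to it. The estimate itself rests on 364 free C1q UMIs and on the estimated share, and no interval was computed for it.

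**Figure D1:**
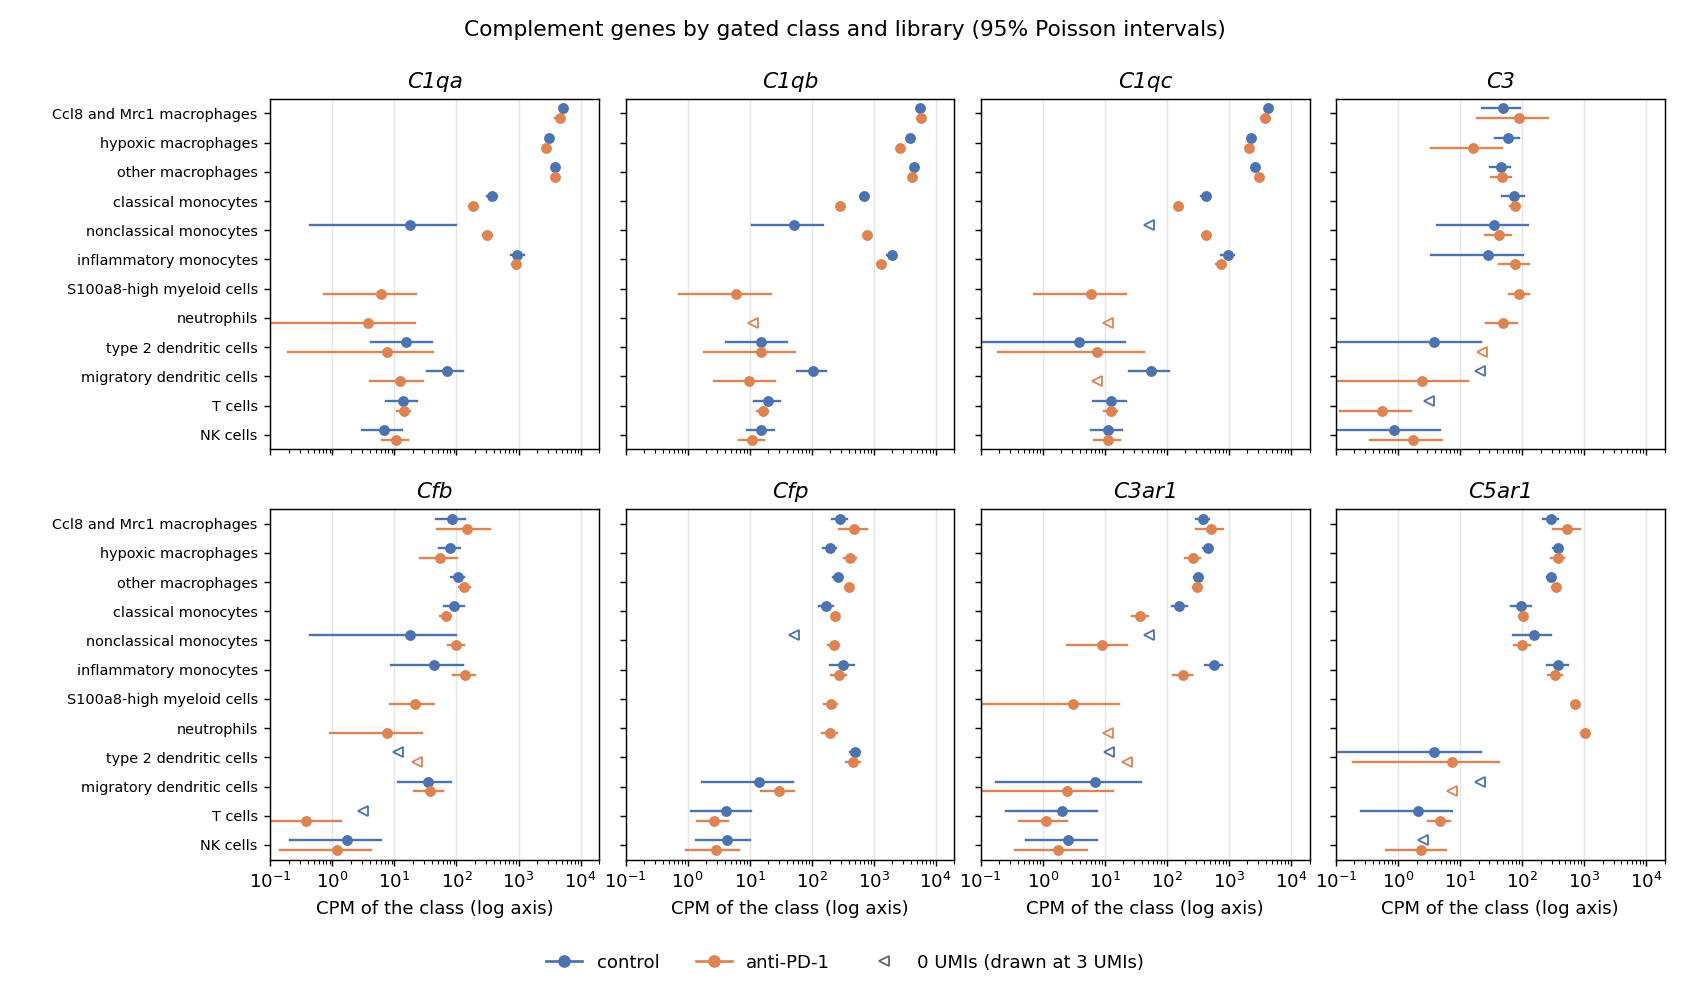
Levels of the 8 genes (x axis, CPM on a log scale) by gated class (y axis) in the control (blue) and anti-PD-1 (orange) library, with bars for 95% Poisson intervals, open triangles at the level of 3 UMIs where none was counted, and classes under 5 cells left out. The C1q genes are highest in the 3 macrophage types, C5ar1 in neutrophils, and Cfp in type 2 dendritic cells of the control library.

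Among the macrophage types C1q was highest in the Ccl8 and Mrc1 macrophages, at 15082 CPM in the control and 14218 CPM in the anti-PD-1 library. The other macrophages followed with 10962 and 11071 CPM and the hypoxic macrophages with 9247 and 7568 CPM. The order was the same in both libraries. The anti-PD-1 level of the Ccl8 and Mrc1 macrophages rested on 7 cells, and the interval of its ratio to control included 0 (log2 ratio -0.09, -0.23 to 0.06).

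Within macrophages C1q was nearly level between the libraries. The log2 ratio of anti-PD-1 over control was -0.08 (-0.12 to -0.04) over all macrophages and -0.10 (-0.17 to -0.04) with the 3 types weighted alike. Other macrophages had a ratio of 0.01 (-0.03 to 0.06) and hypoxic macrophages -0.29 (-0.38 to -0.20). When each cell counted alike, after thinning to 1000 UMIs, the direction turned, to 0.15 over all macrophages and 0.03 with types weighted alike. The mean of the single cells' levels was 8855 CPM in the control and 9888 CPM in the anti-PD-1 library. The sign of this small difference therefore rested on how deep and shallow cells were weighted. The 12 macrophage markers summed to 19127 and 12711 CPM in these cells, and Apoe alone, the most abundant of them, to 11609 and 6422 CPM. Their part in the C1q values was not tested.

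Of the chains, C1qb had a ratio whose interval lay below those of the other 2. It stood at 4463 CPM in control macrophages against 3903 CPM after anti-PD-1 (log2 ratio -0.19, -0.25 to -0.13). C1qa stood at 3836 and 3693 CPM (-0.05, -0.12 to 0.01), and C1qc at 2774 and 2892 CPM (0.06, -0.01 to 0.13). In hypoxic macrophages the C1qb ratio was -0.52 (-0.67 to -0.37) against -0.14 (-0.30 to 0.01) for C1qa and -0.14 (-0.32 to 0.04) for C1qc. In other macrophages it was -0.11 (-0.18 to -0.03), below C1qc (0.22, 0.13 to 0.31) but overlapping C1qa (0.00, -0.08 to 0.08). Ccl8 and Mrc1 macrophages, with 7 anti-PD-1 cells, did not show this order. Their ratios were 0.01 (-0.22 to 0.24) for C1qb, -0.17 (-0.43 to 0.08) for C1qa and -0.12 (-0.40 to 0.15) for C1qc.

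C1qb made up a larger part of C1q in monocytes than in macrophages in both libraries. It was 48.0% (44.4 to 51.7) of C1q UMIs in control monocytes and 40.3% (39.5 to 41.2) in control macrophages. In the anti-PD-1 library it was 47.3% (45.1 to 49.4) and 37.2% (36.3 to 38.2). C1qa showed the opposite order, with 24.9% and 26.9% in monocytes and 34.6% and 35.2% in macrophages, while C1qc was 27.1% and 25.8% against 25.1% and 27.6%. The anti-PD-1 nonclassical monocytes were farthest from macrophages, with 51.5% C1qb (47.6 to 55.3) and 20.6% C1qa (17.6 to 23.9). Free RNA held 49.4% C1qb (38.4 to 60.5) in the control and 34.9% (interval up to 40.0) in the anti-PD-1 library. In the anti-PD-1 library the C1qb share of monocytes lay above that interval, whereas in the control library the 85 free C1q UMIs did not set it apart from that of monocytes.

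**Figure D2:**
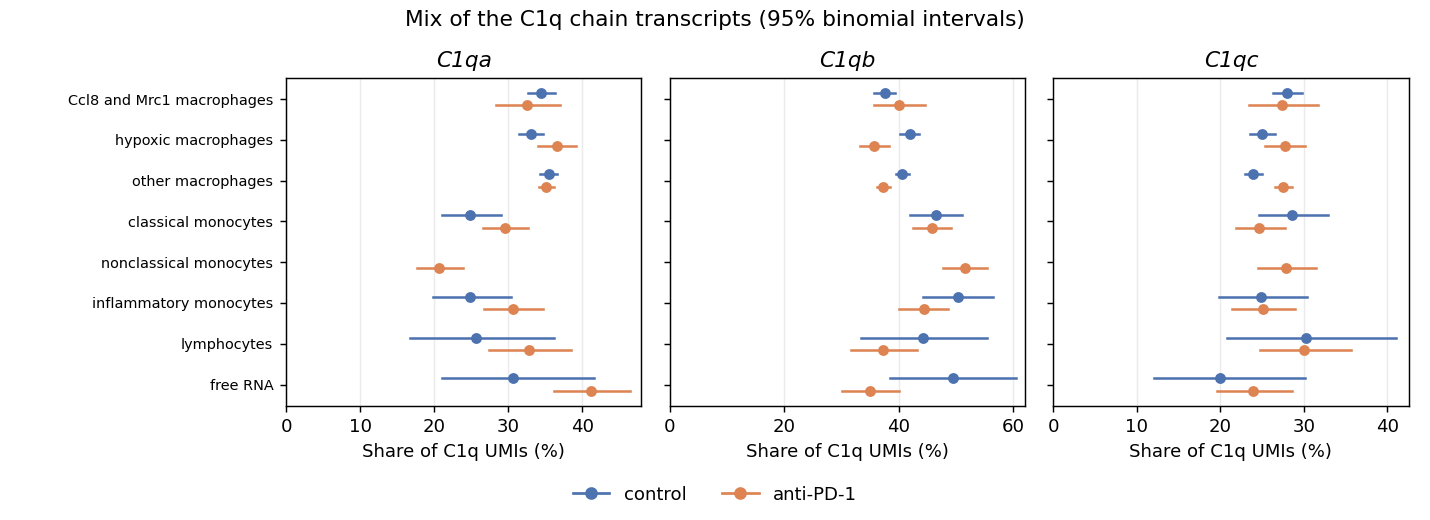
Share of C1q UMIs from C1qa, C1qb and C1qc (x axes, %) by class (y axis) in the control (blue) and anti-PD-1 (orange) library, with bars for 95% binomial intervals and groups under 30 C1q UMIs left out. Monocyte types sit to the right of macrophage types for C1qb and to the left for C1qa.

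Not every gated macrophage carried C1q. After thinning to 1000 UMIs per cell, all 3 C1q genes were seen in 52.5% of control (45.4 to 59.5) and 60.5% of anti-PD-1 macrophages (52.5 to 68.1), and none in 27.7% and 21.6%. Without thinning, none was seen in 18.8% and 19.1%, at median depths of 5138 and 5537 UMIs. In lymphocytes, which should lack the genes, a C1q UMI was seen in 2.7% and 3.0% of thinned cells and in 10.7% and 7.7% of unthinned cells, at median depths of 2930 and 2632 UMIs. In other macrophages the cells were spread over the whole range, with 34 of 107 cells in the control library, and 25 of 119 in the anti-PD-1 library, at 0 C1q UMIs of 1000, and 14 and 18 cells at 20 or more.

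**Figure D3:**
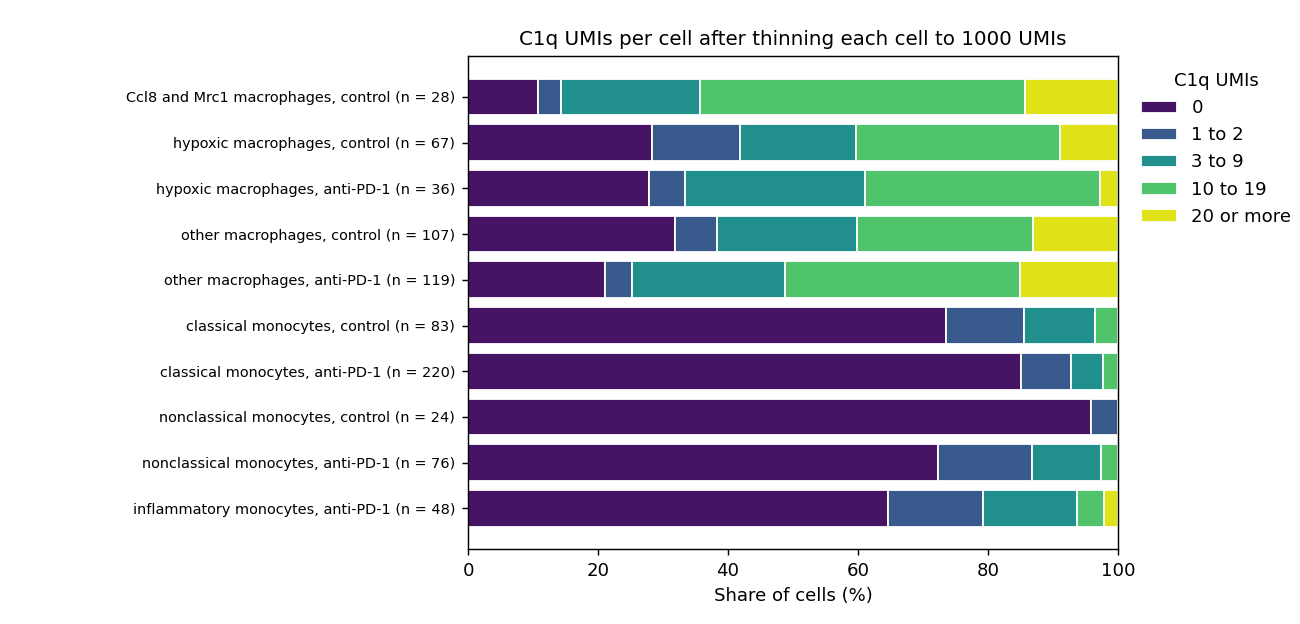
Shares of cells (x axis, %) with 0, 1 to 2, 3 to 9, 10 to 19 and 20 or more C1q UMIs after thinning each cell to 1000 UMIs, for macrophage and monocyte types of at least 20 cells in each library. Most monocytes have none, and the control nonclassical monocytes have no cell at 3 or more.

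In monocytes the C1q level depended on the type, and the types differed in direction between the libraries. Classical monocytes, the Ly6c2-positive cells that enter tissues from blood, had 1493 CPM in the control and 622 CPM in the anti-PD-1 library (log2 ratio -1.26, -1.43 to -1.10). Few cells carried a large part of it, since the 5 cells with most C1q held 61.7% and 48.8% of the UMIs. After thinning, 22 of 83 control cells had a C1q UMI, against 33 of 220 anti-PD-1 cells. Among cells under 3000 UMIs the 20 control cells had 1611 CPM (1243 to 2053) and the 33 anti-PD-1 cells 1190 CPM (946 to 1477), with overlapping intervals, and among deeper cells 1476 and 592 CPM. Apoe, a macrophage gene, moved the same way in these cells, from 3324 to 445 CPM, and the summed level of the 12 macrophage markers, all of them seen in both libraries, was 6773 and 2158 CPM. S100a8 moved the opposite way, from 12.3 to 1598 CPM. Their part in the C1q difference was not tested.

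Nonclassical monocytes, which patrol vessels and carry Ace and Treml4, went the other way. Their 24 control cells held 4 C1q UMIs in all, or 70.0 CPM (19.1 to 179). Their 76 anti-PD-1 cells held 674, or 1524 CPM (1411 to 1644). The log2 ratio was 4.44 (3.08 to 6.32), and under the 8 alternative settings it ran from 4.43 to 5.44. The interval of the control level includes the 44.8 CPM that free RNA would give in lymphocytes of that library, while the anti-PD-1 level was far above the corresponding 24.5 CPM.

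In the anti-PD-1 nonclassical monocytes, 33 of 76 cells had a C1q UMI, 14 had 10 or more, and the 5 richest held 62.9% of the UMIs. The 14 cells were deep, with a median of 10246 UMIs against 4324 for the other 62. Their Ace level was 91.9 CPM against 263 CPM, their Ly6c2 level 207 against 276 CPM and their Apoe level 291 against 382 CPM. The class's own markers differed between the libraries as well: the 8 nonclassical markers, all seen in both, summed to 2730 CPM in the control and 1714 CPM in the anti-PD-1 library, with Ace at 402 and 213 CPM and Ly6c2 at 577 and 256 CPM. Their part in the C1q difference was not tested. The class as a whole was deeper in the anti-PD-1 library, with a median of 5279 UMIs against 2244. Among cells under 3000 UMIs, the 22 anti-PD-1 cells still had 1199 CPM (903 to 1561), against 50.9 CPM (6.16 to 184) in the 19 control cells. Macrophage markers did not follow C1q here: the 12 summed to 3500 CPM in the control, with 9 seen, and to 1848 CPM in the anti-PD-1 library, with 11 seen, and Apoe stood at 2030 and 355 CPM.

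Inflammatory monocytes, gated on genes such as Slpi and Il1rn, had the highest C1q level of the monocytes, 3862 CPM over 15 control cells, against 2953 CPM over 48 anti-PD-1 cells (log2 ratio -0.39, -0.60 to -0.17).

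When all macrophages and monocytes were summed, C1q stood at 8466 CPM in the control and 3998 CPM in the anti-PD-1 library, a log2 ratio of -1.08 (-1.12 to -1.05). With the 6 types weighted alike it was -0.10 (-0.16 to -0.04). The macrophages' part of the summed cells was 202 of 324 in control and 162 of 506 in the anti-PD-1 library. The summed ratio thus carried the numbers of cells in each type, which 1 library per group cannot tie to the treatment.

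Against the background of all genes, no member stood out in macrophages. Of 6671 genes with at least 20 UMIs in macrophages, 3.31% were lower by 2-fold or more and 3.12% higher, and 0 of the 8 members were either. In monocytes 4.11% of 6838 genes were lower and 6.62% higher, and 1 member, C3ar1, was lower. In macrophages and monocytes summed, 3.73% of 8402 genes were lower and 4.92% higher, and 3 members were lower: C1qa (-1.10), C1qb (-1.15) and C3ar1 (-1.36). With the 6 types weighted alike the log2 ratios of these 3 were -0.09, -0.16 and -0.53, none of them a 2-fold difference. The members' median log2 ratio was 0.00 in macrophages, -0.42 in monocytes and -0.71 in both summed, against 0.06, 0.06 and 0.05 over all genes tested.

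**Figure D4:**
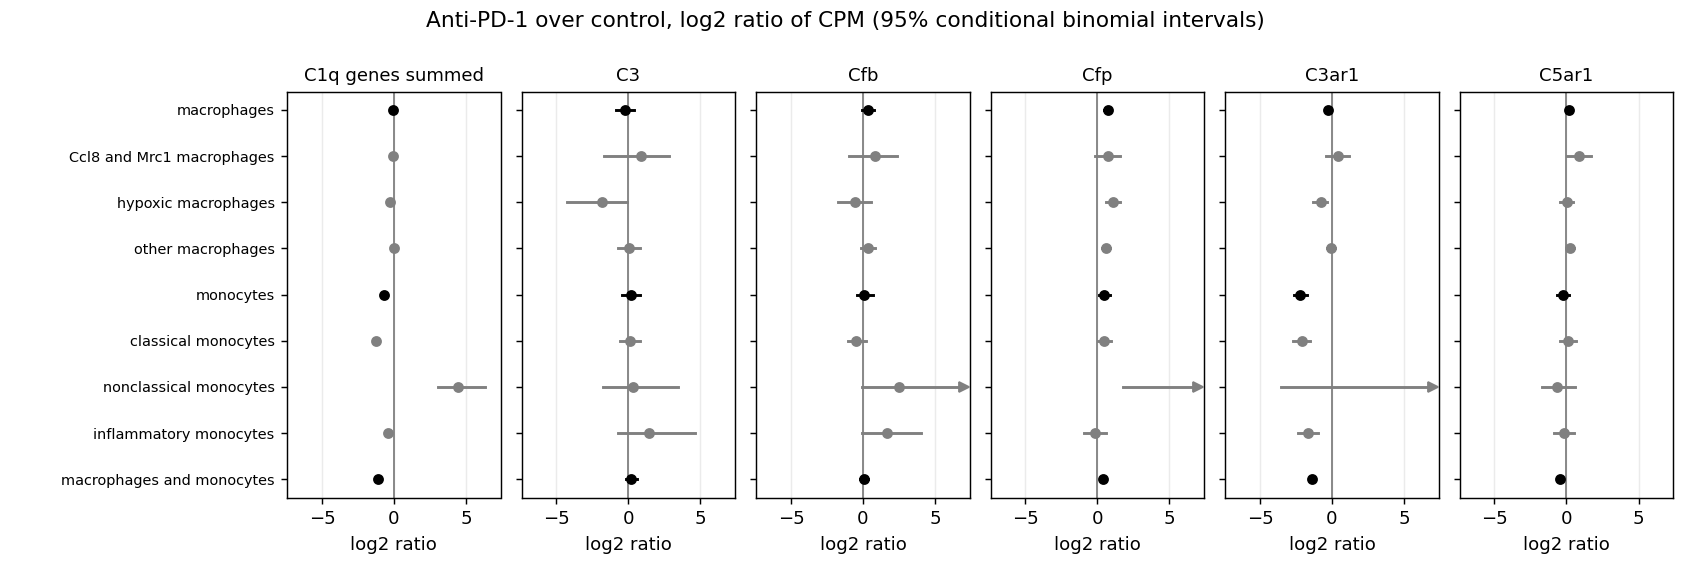
Log2 ratio of anti-PD-1 over control CPM (x axes) for the summed C1q genes and 5 further members, by class (y axis; black for summed classes, grey for single types), with 95% conditional binomial intervals and arrows where an interval leaves the axis. C1q is near 0 in macrophage types, below 0 in classical and above 0 in nonclassical monocytes, and C3ar1 is below 0 in monocytes.

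C3 and the alternative pathway genes were low but present in the same cells. C3, the central protein of the cascade, had 50.0 CPM (38.1 to 64.6) in macrophages of the control library and 42.4 CPM (30.1 to 57.9) in those of the anti-PD-1 library. In monocytes it stood at 61.9 (41.1 to 89.4) and 70.0 CPM (59.0 to 82.6). S100a8-high myeloid cells, at 90.9 CPM (61.3 to 130), and neutrophils, at 49.5 CPM (26.4 to 84.7), carried it as well, whereas lymphocytes had 0.45 and 0.82 CPM. Within the anti-PD-1 library the intervals of monocytes and of S100a8-high cells lay above that of macrophages, while that of neutrophils overlapped it. Hypoxic macrophages had 21 control UMIs (58.8 CPM) against 3 anti-PD-1 UMIs (16.4 CPM, log2 ratio -1.84, -4.23 to -0.10). Over macrophages and monocytes the ratio was 0.20 (-0.17 to 0.59).

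Cfb, which encodes the protease of the alternative convertase, had 93.3 CPM (76.7 to 112) in macrophages of the control library and 118 CPM (97.3 to 143) in those of the anti-PD-1 library, with 75.1 and 80.5 CPM in monocytes. The ratio over both was 0.07 (-0.23 to 0.37), but 0.62 (0.16 to 1.07) with the 6 types weighted alike and 0.99 after thinning. Migratory dendritic cells carried 35.1 and 36.9 CPM, while type 2 dendritic cells had 0 UMIs in 35 and 27 cells, which allows up to 11.6 and 22.8 CPM. Nonclassical monocytes had 1 control UMI against 44 anti-PD-1 UMIs (99.5 CPM), a log2 ratio of 2.51 with an interval that includes 0 (-0.05 to 7.84).

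Cfp, which encodes properdin, was high in type 2 dendritic cells, with 499 CPM (416 to 593) among 35 control cells and 471 CPM (361 to 604) among 27 anti-PD-1 cells, a log2 ratio of -0.08 (-0.54 to 0.36). This was the highest level in the control library, while in the anti-PD-1 library 7 Ccl8 and Mrc1 macrophages stood at 480 CPM (274 to 779), with an overlapping interval. The type 2 dendritic cells lacked the other members: C1q was at 34.8 and 30.4 CPM, near the level in lymphocytes, and C3, Cfb, C3ar1 and C5ar1 had 0 or 1 UMI in each library. Cfp was the member with the highest ratio in macrophages, from 246 CPM (219 to 276) to 402 CPM (362 to 445), a log2 ratio of 0.71 (0.48 to 0.94). It was above 0 in hypoxic macrophages (1.08, 0.60 to 1.57) and in other macrophages (0.59, 0.31 to 0.87). The share of thinned hypoxic macrophages with a Cfp UMI was 13.4% in the control library, against 55.6% under anti-PD-1. In monocytes the ratio was 0.47 (0.13 to 0.84), and over macrophages and monocytes 0.36 (0.19 to 0.55), against 0.63 after thinning and 0.73 with types weighted alike. Nonclassical monocytes had 0 Cfp UMIs in 24 control cells, which allows up to 52.5 CPM, and 101 UMIs in 41 of 76 anti-PD-1 cells (228 CPM), and the interval of their log2 ratio began at 1.80.

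The transcripts of the anaphylatoxin receptors were shared by macrophages but not by granulocytes. Macrophages carried C3ar1 at 368 CPM (334 to 404) in the control and 303 CPM (269 to 341) in the anti-PD-1 library, a log2 ratio of -0.28 (-0.50 to -0.06). Hypoxic macrophages had 454 and 262 CPM (-0.79, -1.29 to -0.32), and other macrophages 316 and 304 CPM (-0.06, -0.34 to 0.23). With every cell thinned to 1000 UMIs the macrophage ratio was 0.09 (-0.41 to 0.59), and with the 3 types weighted alike it was -0.10 (-0.48 to 0.28), both with intervals that include 0. Ccl8 and Mrc1 macrophages had 383 and 510 CPM (0.41, -0.45 to 1.19). The mean of single-cell levels was 360 and 329 CPM.

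In monocytes C3ar1 had 92 UMIs in 122 control cells, or 203 CPM (164 to 249), and 89 UMIs in 344 anti-PD-1 cells, or 44.2 CPM (35.5 to 54.4), a log2 ratio of -2.20 (-2.64 to -1.76). Classical monocytes had 160 and 37.4 CPM (-2.09, -2.68 to -1.51) and inflammatory monocytes 572 and 181 CPM (-1.66, -2.37 to -0.96). A C3ar1 UMI was seen in 30 of 83 control and 30 of 220 anti-PD-1 classical monocytes. After thinning, 10.8% and 5.5% of classical monocytes had one, and the monocyte ratio was -0.84 with an interval that includes 0 (-1.71 to 0.07). The mean of single-cell levels was 188 and 67.9 CPM, the same direction as the summed counts. Nonclassical monocytes had 0 control and 4 anti-PD-1 UMIs.

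C5ar1 was highest in neutrophils, with 1032 CPM (913 to 1163) in 112 anti-PD-1 cells, followed by the S100a8-high myeloid cells with 727 CPM (638 to 825). The latter cells expressed Ly6c2 (2170 CPM) beside the neutrophil genes Retnlg (7452 CPM) and S100a8 (90729 CPM), so that they were not given a cell type name. C3ar1 had 0 UMIs in neutrophils, which allows up to 11.4 CPM, and 1 UMI in the S100a8-high cells. The C1q genes had 1 and 6 UMIs there. The 4 control neutrophils had 5 C5ar1 UMIs, too few for a comparison.

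C5ar1 was also present in macrophages, at 321 CPM (289 to 355) in the control and 363 CPM (325 to 404) in the anti-PD-1 library (log2 ratio 0.18, -0.04 to 0.40), and in monocytes at 150 and 126 CPM (-0.26, -0.65 to 0.15). With the 3 macrophage types weighted alike the macrophage ratio was 0.39 (0.05 to 0.74), an interval above 0, and after thinning 0.25 (-0.28 to 0.78). Ccl8 and Mrc1 macrophages, with 7 anti-PD-1 cells, had 0.88 (0.02 to 1.67). Hypoxic macrophages had 0.01 (-0.43 to 0.43) and other macrophages 0.25 (-0.03 to 0.53). Summed over macrophages and monocytes the ratio was -0.45 (-0.63 to -0.27), and with the 6 types weighted alike it was 0.18 (-0.12 to 0.47). In thinned macrophages C3ar1 alone was seen in 16.3% of control and 16.7% of treated cells, C5ar1 alone in 15.3% and 14.2%, and both in 11.4% and 14.8%. Unthinned, both receptors were seen in 46.5% and 57.4% of macrophages.

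**Figure D5:**
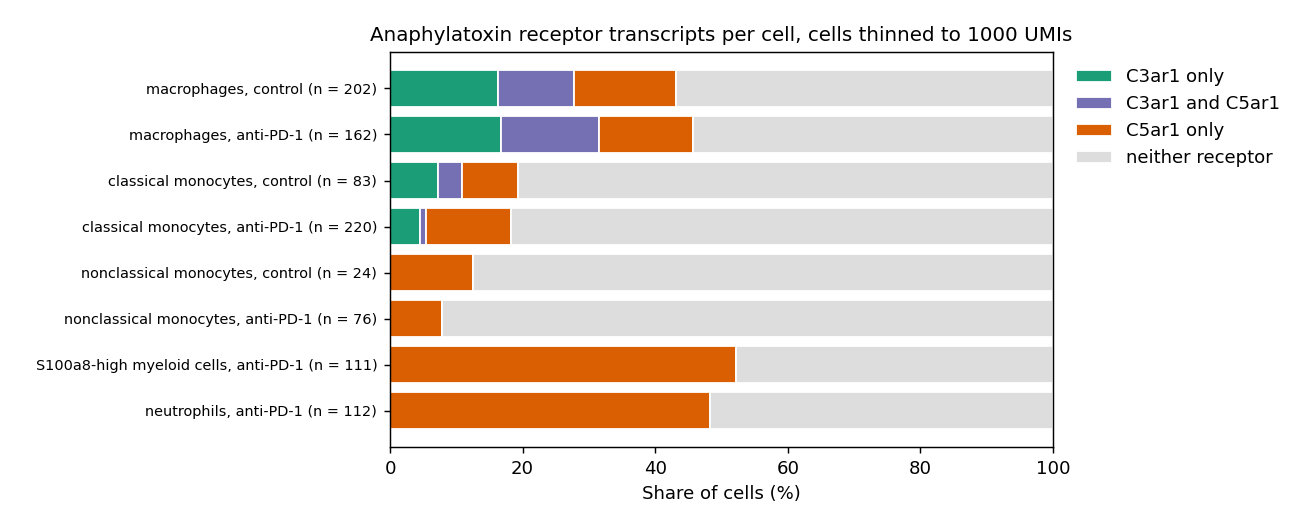
Shares of cells (x axis, %) with UMIs of C3ar1 only, of both receptors, of C5ar1 only and of neither, after thinning each cell to 1000 UMIs, for macrophages, monocyte types, S100a8-high myeloid cells and neutrophils of at least 20 cells. Macrophages include cells with C3ar1, with C5ar1 and with both, but 56.9% of control and 54.3% of anti-PD-1 macrophages show neither. In neutrophils and S100a8-high cells only C5ar1 is seen, and 51.8% and 47.7% of them show neither.

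The profiles of the members were compared over 22 sums, each a class of at least 20 cells in 1 library, by the correlation of log2(CPM + 10). The sums share their library, its free RNA and, for lymphocyte classes, near-zero levels, so the values are descriptions. C1qa followed C1qb (Pearson r 0.99) and C1qc (0.99), and the next gene in the list for each C1q gene was C3ar1 (0.97 for C1qa, 0.95 for C1qb and 0.96 for C1qc). Ccl12 was among the 5 most similar genes of each, and Ms4a7, a macrophage marker used in the gates, among those of C1qa and C1qc. The gene most like C3ar1 was Arg1 (0.98). For C5ar1 it was Rab20 (0.96), and C3 was the member closest to it (0.90). C3 was most like Mgst1 (0.97), Cfp most like Gsn (0.94) and Cfb most like Blvrb (0.90).

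Other complement genes were scarce in the sorted CD45+ cells, and the other cells of the tumours were not measured. Of 47 listed genes 46 were in the matrices, and 19 of these had 0 UMIs in kept cells, 16 had 1 to 49 and 11 had at least 50. Among those with 0 were the terminal components C6, C7, C8a, C8b and C9, the lectin pathway proteases Masp1 and Masp2, the C1 inhibitor Serping1 and the receptor Vsig4. C1ra and C1s1, which encode proteases of the C1 complex, had 20 and 1 UMIs, C2 had 4 and C4b 42. Within the sorted cells, transcripts of the C1q chains were thus plentiful while those of their partner proteases were not. These 11 include receptors and regulators. Itgam, the alpha chain of complement receptor 3, was highest in neutrophils (244 CPM), its partner chain Itgb2 in control nonclassical monocytes (420 CPM) and Itgax, the alpha chain of complement receptor 4, in control hypoxic macrophages (78.4 CPM). Lrp1 was highest in control nonclassical monocytes (157 CPM) and Cd93 in anti-PD-1 hypoxic macrophages (82.0 CPM). Calr, a chaperone that can bind C1q, was highest in anti-PD-1 other macrophages (698 CPM) and C1qbp in control cells gated as T or NK cells (170 CPM). Of the regulators, Clu was highest in anti-PD-1 migratory dendritic cells (103 CPM), Cd55 in anti-PD-1 NK cells (29.2 CPM) and Cr1l in anti-PD-1 T or NK cells (117 CPM).

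Counted by file row, since Itgam has 2 rows, 0 of 9 listed rows with at least 20 UMIs differed by 2-fold or more in macrophages, where their median log2 ratio was 0.04. In monocytes 1 of 10 was higher (Itgax, with 4 and 41 UMIs), and the median was -0.04. How many were lower in monocytes is not reported here. In macrophages and monocytes summed, 1 of 12 was lower (C4b, with 16 and 14 UMIs) and 1 higher (the shallower Itgam row, with 5 and 25 UMIs), with a median of -0.23. These counts are small beside the shares of all genes given above, and nothing is read from them.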

How the data were processed

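The deposited values were counts of UMIs per gene and barcode, not normalised. The authors made them with Cell Ranger 2.1 on the mm10 build, per the submitters' processing notes, and the matrices list barcodes with and without cells. Libraries held 5203415 (control) and 13717817 (anti-PD-1) UMIs. The members, gene lists and tests were chosen with earlier results of these data known, and gates and thresholds were set after seeing the data. Cells had at least 1000 UMIs and at most 10% mitochondrial UMIs. A cell was gated on at least 3 UMIs of at least 2 markers, with a score at least 2 times that of any other lineage. Macrophage, monocyte or ungated cells with 2% or more S100a8 and S100a9 UMIs were set aside as S100a8-high. No doublet caller was run; 20 control and 161 anti-PD-1 cells also passed another lineage's gate. UMI sums of each class in each library were scaled by their total (CPM). Levels carry exact Poisson, shares exact Clopper-Pearson and ratios conditional binomial intervals, and type-weighted means a delta-method interval. Upper limits at 0 are 3 UMIs. 3′ UMI counts do not scale with transcript length. All 8 members and listed genes with at least 50 UMIs are named, apart from results not reported here, with the 5 genes most like each member over genes of at least 200 UMIs, of which the text gives the first. Python 3.11.15, numpy 2.4.6, scipy 1.17.1 and matplotlib 3.10.9 were used.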

Additional observations from a re-analysis of the deposited data

Results flagged for a closer look

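The C1q genes had ratios of opposite direction in 2 classes of the same contrast, and this difference between classes was not tested. In nonclassical monocytes the log2 ratio of anti-PD-1 over control was 4.17 for C1qa, 3.90 for C1qb and 4.44 for the 3 genes summed, and for C1qc, with 0 control UMIs, its interval began at 2.71. In migratory dendritic cells it was -2.51 for C1qa, -3.42 for C1qb and -3.38 for the sum, and for C1qc, with 0 anti-PD-1 UMIs, its interval ended at -2.28. The dendritic cell values rest on 33 control UMIs in 24 cells, of which 1 cell held 25, and without that cell the control level was 58.4 CPM in place of 231 CPM. The anti-PD-1 level there was 22.2 CPM. In nonclassical monocytes the richest anti-PD-1 cell held 141 of 674 UMIs, and without it the level was 1238 CPM.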

How the results depend on the processing

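The 8 results were recomputed under 73 alternatives, and 59 values stayed within the interval of the value reported or, for a count, within 1.5 times of it. Thinning every cell to 1000 UMIs, which weights cells alike, turned the C1q ratio in macrophages to 0.15 and with types weighted alike to 0.03, and gave 0.63 for Cfp, 0.99 for Cfb, -0.64 for C3ar1 and -0.11 for C5ar1 over macrophages and monocytes. Weighting the 6 macrophage and monocyte types alike, chosen after seeing the data, gave 0.73 for Cfp, 0.62 for Cfb, -0.53 for C3ar1 and 0.18 for C5ar1, the last with its direction turned. In macrophages and monocytes summed, the count of listed complement genes lower by 2-fold or more was 1. It was 0 with a minimum of 500 UMIs per cell, a mitochondrial limit of 5%, thinning or at least 50 UMIs per gene. Only C4b was counted, close to the threshold. Single-class ratios, recomputed under the same 8 settings after seeing the data, ran from -2.28 to -0.84 for C3ar1 in monocytes, from -0.33 to 0.09 for C3ar1 in macrophages, from -1.39 to -0.97 for C1q in classical monocytes and from 0.67 to 0.87 for Cfp in macrophages. No paired analysis was possible because each group has 1 library. Depth limits C3 and Cfb most, with at most 162 UMIs in the macrophages or monocytes of a library.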
